A study of Mus musculus with 6 samples.

Results

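Glucose that enters a muscle fibre can leave the glycolytic trunk at several points. The enzymes of those exits were described here as a list of 32 genes. They were chosen by name for their roles, with earlier results of these data known. The list covers the pentose phosphate pathway, the use of ribose, the polyol and fructose route, hexosamine synthesis with O-GlcNAc transfer and hexosamine salvage. It also holds the glyoxalases and the NADPH-producing enzyme Idh1. All 32 were found by gene name among the 54532 rows of the deposited count table, and 31 passed the filter on low counts, the exception being Gnpnat1. RNA came from gastrocnemius, a calf muscle made mainly of fast fibres, of 3-month-old C57BL/6J mice, all of which had received 0.2% doxycycline in their water starting at 4 weeks. The 3 libraries labelled transgenic carried the genotype Mck cre; Tg Glut1-Hk2-Pfkfb3, and the 3 control libraries carried Mck cre alone. Mck is the muscle creatine kinase promoter, which drives Cre in striated muscle fibres and not in the other cells of the tissue, and every control carried it too. The labels do not say whether the libraries of a group came from separate animals, so the p-values measure only the spread between these samples.

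The oxidative arm of the pentose phosphate pathway turns glucose 6-phosphate into ribulose 5-phosphate and yields NADPH, and its non-oxidative arm passes sugars back to glycolysis or supplies ribose for nucleotides. The polyol route reduces glucose to sorbitol and oxidises sorbitol to fructose, and it is best known from tissues exposed to high glucose. The hexosamine route starts from fructose 6-phosphate and ends in UDP-GlcNAc, the donor for glycan synthesis and for O-GlcNAc, a sugar placed on intracellular proteins by OGT and removed by OGA. The glyoxalases clear methylglyoxal, a reactive by-product of the triose phosphates.

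Library totals ran from 19546456 to 24665024 counts. None of the 3 genes named in the transgene was higher in every library labelled transgenic than in every control. Pfkfb3, a regulatory kinase of glycolysis, had 120, 476 and 542 CPM (counts scaled to a common library size by the TMM method) in the libraries labelled transgenic, against 579, 1096 and 1585 CPM in control libraries. All 3 libraries labelled transgenic lay below all controls, opposite to the label, at a log2 fold change of -1.52 ± 0.57. The groups overlapped for Slc2a1 and Hk2. None of the 3 passed the test (edgeR adjusted p from 0.196 to 0.381), and every direction given is a direction between labels. Control replicate 1 stood apart. Its best correlation with another library was 0.969 on log2(CPM + 1), while the best of each other library lay between 0.986 and 0.993. The 9 B cell markers summed to 554 CPM and the 9 T cell markers to 137 CPM in control replicate 1, against at most 56.8 and 5.53 CPM in any other library. Of these, Ms4a1 and Cd22 of the B cell list and Cd3d, Cd3g, Cd8a and Cd5 of the T cell list had 0 counts in at least 1 library. Fibre markers such as Ckm, Acta1 and Myh4 summed to 120052 to 150955 CPM in libraries labelled transgenic and 119515 to 175767 CPM in controls, with no marker at 0.

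Sord was the 1 member that passed the test with all libraries. It encodes sorbitol dehydrogenase, which oxidises sorbitol to fructose in the last step of the polyol route. Sord had 123, 105 and 123 CPM in the libraries labelled transgenic, against 72.2, 69.9 and 75.8 CPM in control libraries. The lowest library labelled transgenic lay well above the highest control, and the controls were tightly grouped. The log2 fold change was 0.69 ± 0.11 (SE, 95% interval 0.43 to 0.95), or 1.61-fold, and edgeR gave an adjusted p of 0.0410. Across all 14973 genes tested 1.3% passed that threshold, 0.788% as higher (118 genes) and 0.508% as lower (76 genes), so 1 of 31 members is near the background. With scaling by library totals alone, 205 genes passed as higher and 54 as lower, and the median over all genes was 0.12 against -0.03 with TMM. DESeq2 called 997 of 13734 genes, 7.26%, and again only Sord among the members. In the 6 edgeR fits that each left out 1 library, the log2 fold change of Sord stayed between 0.65 and 0.76. It passed without control replicate 1 (edgeR adjusted p = 0.0190) and missed the threshold when any of the other 5 libraries was left out (0.108 to 0.207). It also missed it with no filter on low counts (0.0714) and with limma on log2(FPKM + 1) and log2(FPKM + 0.1) (0.0589 and 0.0516). In all, Sord passed in 5 of 14 alternatives, with the adjusted p from 7.62e-05 to 0.207. Sord lies on chromosome 2 of GRCm38 (122234749 to 122265340). A processed pseudogene, Gm6652, matches its coding sequence at 99.3% and took 51 counts over the 6 libraries, against 13083 for Sord.

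Most members sat close to their control level. The log2 fold change lay within 0.5 of 0 in 29 of 31 tested members, or 93.5%, where the same held for 75.5% of all genes tested. Among the 31, 20 had a positive and 11 a negative fold change, with a median log2 fold change of 0.09 against -0.03 over all genes. An unadjusted p below 0.05 was reached by 5 members, Sord, Akr1b8, Uap1, Ogt and Gnpda1. That is a share below the 20.8% of all genes tested. The CPM values of the groups did not overlap in 8 members, 5 higher and 3 lower. Across all genes tested the groups did not overlap in 27.4%, 13.8% as higher and 13.6% as lower, so 8 of 31 is close to the background.

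**Figure D1:**
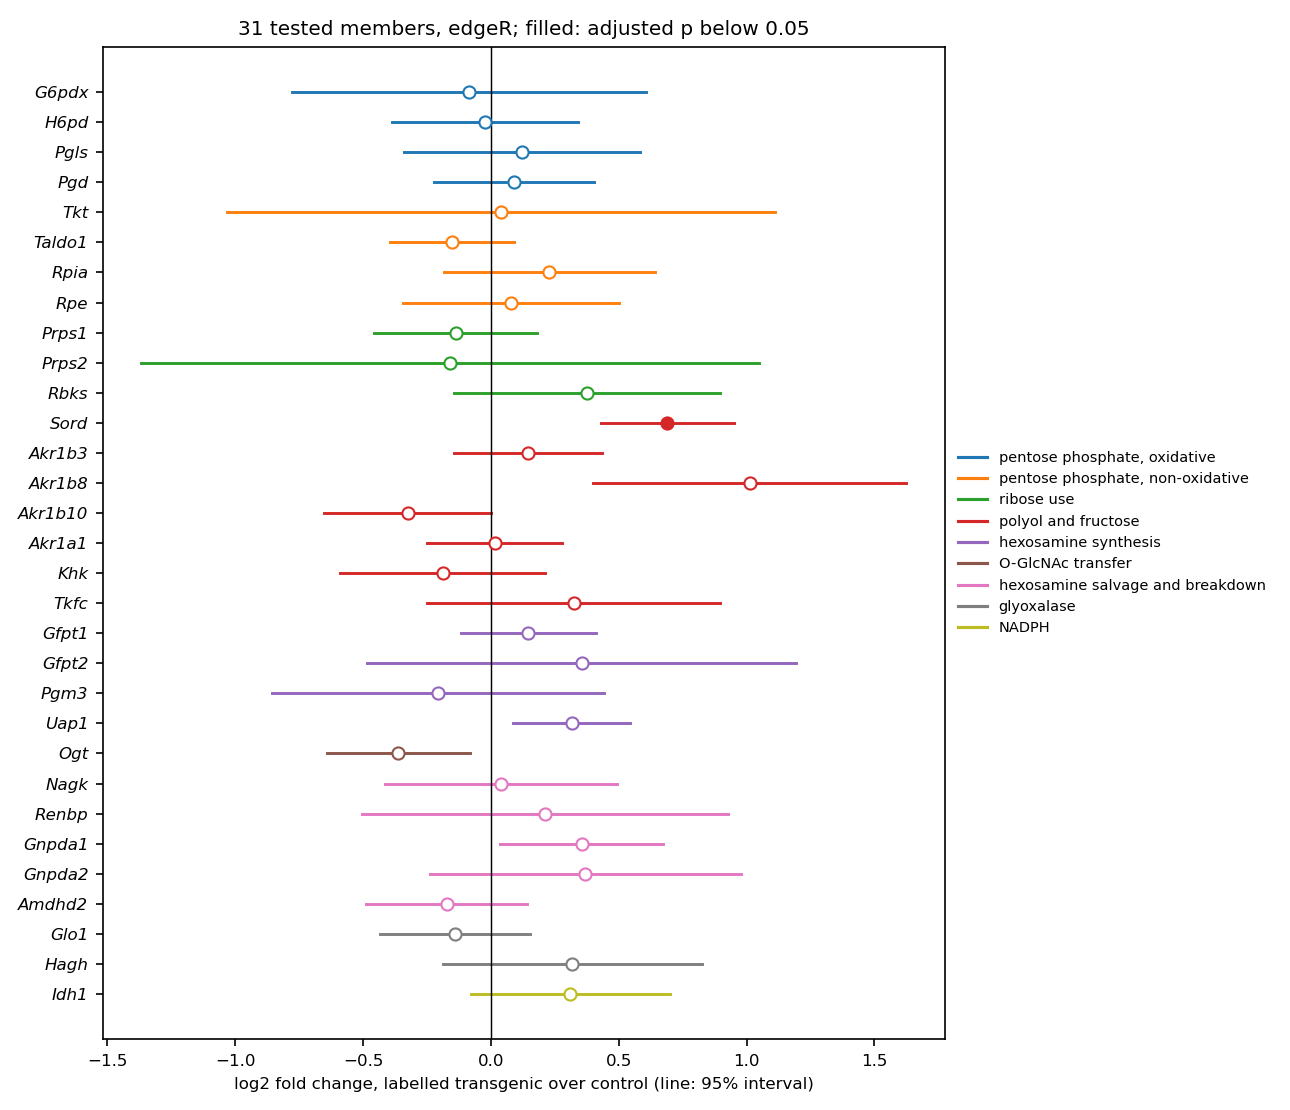
Log2 fold change of the 31 tested members in libraries labelled transgenic over control libraries (x axis), with 95% intervals from edgeR, coloured by role. Only Sord, at 0.69, is filled (adjusted p below 0.05), and Tkt and Prps2 have the widest intervals.

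The RNAs differed widely in level, which was compared on the deposited FPKM scale (counts scaled by gene length and library size). Akr1a1, aldehyde reductase, with a log2 fold change of 0.01 ± 0.11, was highest, at a mean of 60.7 FPKM over the 6 libraries, followed by Glo1 at 48.4 and Sord at 40.3 FPKM. In libraries labelled transgenic Sord averaged 49.8 FPKM, above Taldo1 at 31.9 FPKM, and in control libraries 30.8 FPKM, below Taldo1 at 35.5 FPKM. Sord and its neighbour Glo1, at 49.8 ± 4.27 and 46.1 ± 1.27 FPKM in libraries labelled transgenic (SD, n = 3), overlapped. In all, 12 members averaged above 10 FPKM, 16 between 1 and 10, and 4 below 1: Prps2, Pgm3, Gnpda2 and Gnpnat1. Gene lengths in the deposited table reach 10072 bases for Gfpt1 and 8384 for Akr1b3. Where a length joins all exons of a gene, long rarely used exons lower its FPKM. For Glo1 and Tkfc the deposited lengths were 1935 and 2253 bases, against 12101 and 4617 joined exon bases in the GENCODE M21 annotation. The place of Glo1 in the order of levels depends on the length used.

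**Figure D2:**
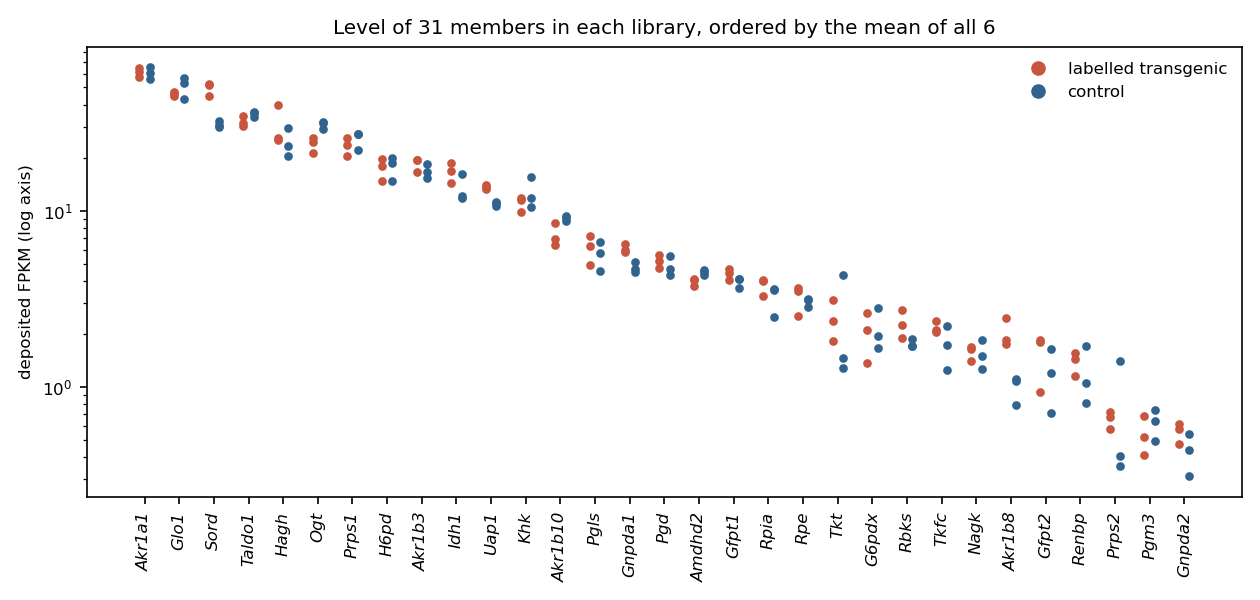
Deposited FPKM (log axis) of 31 members in each library, 3 labelled transgenic and 3 control per gene, ordered by the mean of all 6. Levels span from about 60.7 FPKM for Akr1a1 to 0.492 FPKM for Gnpda2, and the colours separate fully in few genes, Sord among them.

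In the oxidative pentose phosphate arm 0 of 4 genes passed in edgeR, 0 had an unadjusted p below 0.05, and DESeq2 called 0. G6pdx, the X-linked dehydrogenase that opens the pathway, had 4.26, 8.05 and 6.45 CPM in the libraries labelled transgenic, against 8.72, 5.10 and 5.95 CPM in controls. The groups overlapped fully, at a log2 fold change of -0.08 ± 0.30. H6pd, the enzyme that performs the same step inside the endoplasmic reticulum, was far more abundant per length. It averaged 17.5 ± 2.53 FPKM in libraries labelled transgenic and 17.7 ± 2.67 FPKM in controls (SD, n = 3 each), at a log2 fold change of -0.02 ± 0.16. G6pdx averaged 2.03 ± 0.626 FPKM in libraries labelled transgenic and 2.13 ± 0.603 FPKM in controls. Pgd, 6-phosphogluconate dehydrogenase, had 30.9, 36.1 and 33.0 CPM in libraries labelled transgenic, against 28.0, 35.7 and 30.1 CPM in controls. The groups overlapped, with a log2 fold change of 0.09 ± 0.13, a 95% interval from -0.22 to 0.40 and an edgeR adjusted p of 0.732. Pgls, the lactonase between them, had 27.2, 23.8 and 18.4 CPM in libraries labelled transgenic, against 21.7, 25.1 and 17.0 CPM in controls, and was at 0.12 ± 0.20 (edgeR adjusted p = 0.758). Counts of Pgls are uncertain, because 776 of its 3770 exon bases are shared with Fam129c on the same strand.

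In the non-oxidative arm 0 of 4 genes passed, and likewise 0 by unadjusted p or DESeq2. Taldo1, transaldolase, had 65.8, 74.9 and 67.5 CPM in libraries labelled transgenic, against 74.8, 78.2 and 78.5 CPM in controls. Transgenic replicate 2 reached the control range by a small margin, and the log2 fold change was -0.15 ± 0.10 (edgeR adjusted p = 0.434). Rpia, the isomerase that makes ribose 5-phosphate, had 17.7, 21.7 and 21.1 CPM in libraries labelled transgenic, against 19.3, 13.4 and 18.9 CPM in controls. Control replicate 2 was the low library, and the log2 fold change was 0.23 ± 0.18 (edgeR adjusted p = 0.489), with Rpe, the epimerase beside it, at 0.08 ± 0.18. Tkt, transketolase, was the most uneven gene of the pathway. It had 13.6, 22.8 and 17.3 CPM in libraries labelled transgenic, against 31.9, 9.45 and 10.6 CPM in controls. Control replicate 1 was the highest of all 6 libraries and the other controls were the lowest. With all libraries the log2 fold change was 0.04 ± 0.46. Without control replicate 1 it was 0.83 ± 0.22 (edgeR adjusted p = 0.0521, with a range over all alternatives from 0.0521 to 0.971).

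Among the 3 genes of ribose use 0 passed, 0 had an unadjusted p below 0.05 and DESeq2 called 0, and one was as uneven as Tkt. Prps2, an X-linked phosphoribosyl pyrophosphate synthetase, had 2.81, 2.62 and 2.20 CPM in libraries labelled transgenic, against 5.46, 1.37 and 1.57 CPM in controls. Its log2 fold change was -0.16 ± 0.52 with all libraries and 0.78 ± 0.26 without control replicate 1 (edgeR adjusted p = 0.0796, range over all alternatives 0.0796 to 0.995). Prps1, its more abundant relative, had 41.0, 46.9 and 50.9 CPM in libraries labelled transgenic, against 44.1, 54.6 and 54.1 CPM in controls, an overlap with a log2 fold change of -0.14 ± 0.14 (edgeR adjusted p = 0.594). Its coding sequence is matched at 97% identity over 953 of 954 bases by Prps1l3, which took 2293 counts over the 6 libraries against 6620 for Prps1, so reads can be split between them. Rbks, ribokinase, had 2.85, 4.07 and 3.32 CPM in libraries labelled transgenic, against 2.54, 2.55 and 2.77 CPM in controls. The groups did not overlap, but by less than the spread of the libraries labelled transgenic, and the log2 fold change of 0.38 ± 0.22 did not pass (edgeR adjusted p = 0.372).

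Besides Tkt and Prps2, Renbp and Gfpt2 were the tested members whose controls differed by more than 2-fold among themselves. Renbp, an epimerase of N-acetylated hexosamines, had 3.64, 2.86 and 3.84 CPM in libraries labelled transgenic, against 4.25, 2.03 and 2.63 CPM in controls. Gfpt2, the second isoform of the enzyme that opens hexosamine synthesis, had 5.29, 10.3 and 9.97 CPM in libraries labelled transgenic, against 9.26, 3.97 and 6.68 CPM in controls, at a log2 fold change of 0.35 ± 0.36. In all 4 genes control replicate 1 was the highest control. The 9 macrophage markers summed to 207, 296 and 230 CPM in libraries labelled transgenic, against 302, 118 and 188 CPM in controls. Control replicate 1 was thus also the highest library for the B cell, T cell and macrophage sums. It was not for the 7 adipocyte markers, which summed to 933, 1469 and 1387 CPM in libraries labelled transgenic, against 2874, 3502 and 3339 CPM in controls. Most of that sum was Car3, carbonic anhydrase 3, which muscle fibres also express. Car3 had 819, 1038 and 1125 CPM in libraries labelled transgenic, against 2375, 3394 and 3163 CPM in controls. It was the only marker of any list that passed in edgeR with all libraries (log2 fold change -1.58 ± 0.25, edgeR adjusted p = 0.0375). The 6 other adipocyte markers, a split made after the values were seen, summed to 114, 430 and 262 CPM in libraries labelled transgenic, against 500, 108 and 176 CPM in controls. The part of these cells in the 4 genes was not tested, and in bulk RNA fewer cells of a type and less RNA per cell cannot be told apart.

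**Figure D3:**
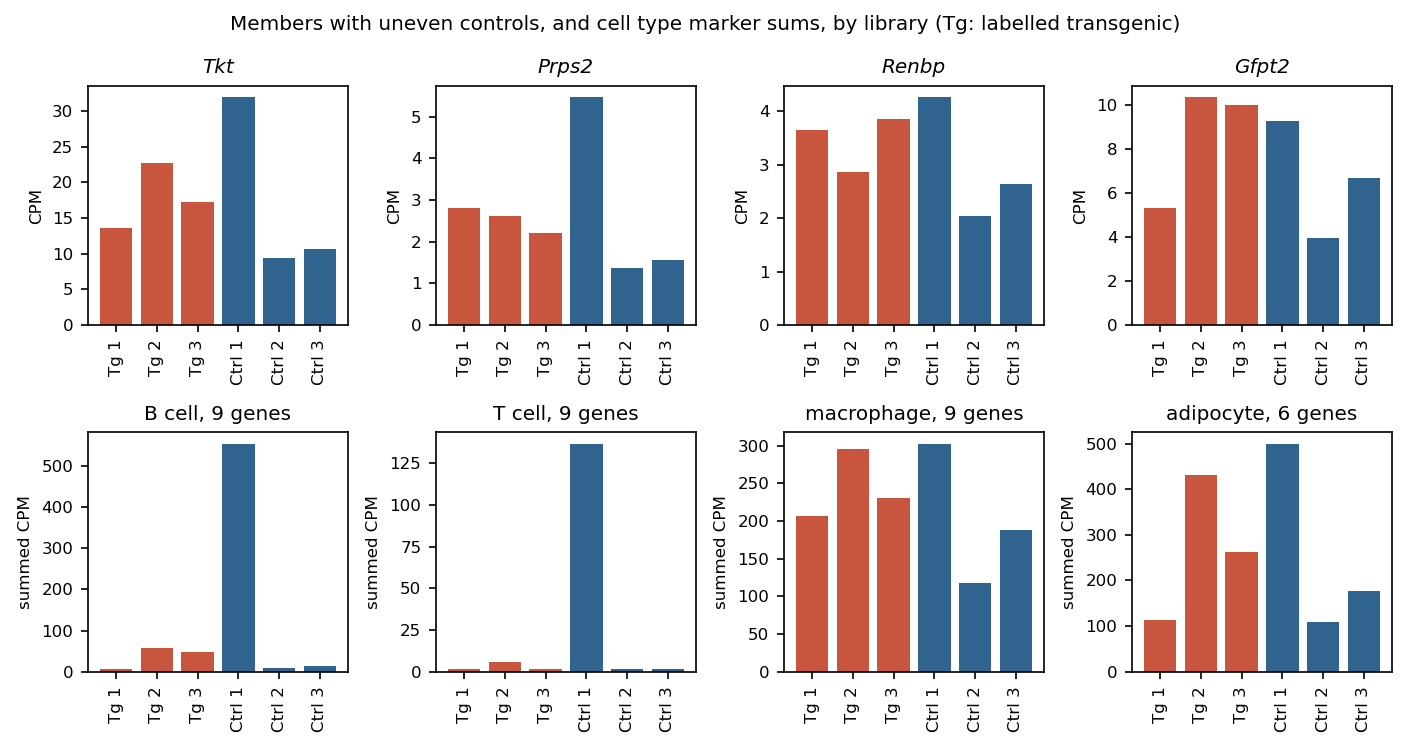
CPM of Tkt, Prps2, Renbp and Gfpt2 (top) and summed CPM of marker lists (bottom; adipocyte without Car3) in the 3 libraries labelled transgenic (Tg) and the 3 controls (Ctrl). Control replicate 1 is the highest control in every panel, at 31.9 CPM for Tkt and 554 CPM for the B cell sum.

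In the polyol and fructose group 1 of 7 genes passed, Sord, and the remaining 6 lay on either side of 0. Akr1b3, the mouse aldose reductase that makes sorbitol, had 165, 162 and 139 CPM in libraries labelled transgenic, against 129, 139 and 153 CPM in controls. Here the groups overlapped, with a log2 fold change of 0.15 ± 0.12, and a test of its difference from Sord was not made. The 4 near-identical copies of Akr1b3 took at most 71 counts each over the 6 libraries, against 20156 for the gene. The aldose reductase-like genes next to it, Akr1b8 and Akr1b10, lie within the same 94.5 kb of chromosome 6 (34302434 to 34396950) and differed in sign. Akr1b8 had 2.64, 3.68 and 2.76 CPM in libraries labelled transgenic, against 1.63, 1.18 and 1.66 CPM in controls. It was a low gene with 25 to 76 counts per library, and its log2 fold change of 1.01 ± 0.26 was the largest of the 31 without passing (edgeR adjusted p = 0.103). Akr1b10 had 30.2, 24.3 and 22.3 CPM in libraries labelled transgenic, against 31.1, 32.3 and 32.9 CPM in controls. Transgenic replicate 1 was nearly at the control level, and the log2 fold change was -0.33 ± 0.14 (edgeR adjusted p = 0.240). The closest stretch between Akr1b8 and Akr1b10 was 250 bases at 95.6% identity, so reads there may be shared.

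Khk, ketohexokinase, acts on the fructose made by sorbitol dehydrogenase. Tkfc, triokinase, acts further down the same route and not on fructose itself. Khk had 17.8, 21.3 and 20.6 CPM in libraries labelled transgenic, against 18.9, 27.9 and 21.2 CPM in controls, and Tkfc 4.63, 4.75 and 5.29 CPM in libraries labelled transgenic, against 5.0, 3.87 and 2.81 CPM in controls. Neither passed, at log2 fold changes of -0.19 ± 0.17 and 0.32 ± 0.25. Per length, the ratio of Sord to Khk was 5.30, 3.79 and 4.56 in libraries labelled transgenic, against 2.91, 1.92 and 2.73 in controls. The groups did not overlap (two-sided exact permutation p = 0.1, the smallest that 3 against 3 allows), and the ratio was chosen after its parts were seen. It is 1 of 4 such ratios computed. That of Akr1b10 to Akr1b8, 3.69 ± 1.04 in libraries labelled transgenic and 9.37 ± 1.94 in controls, did not overlap either (exact permutation p = 0.1). That of Gfpt1 to Gfpt2, 3.20 ± 1.53 in libraries labelled transgenic and 3.80 ± 1.82 in controls, overlapped (exact permutation p = 0.6). Over the 4 ratios the Benjamini-Hochberg adjusted p of the 3 that did not overlap was 0.133 each.

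Hexosamine synthesis had 0 of 4 tested genes past the threshold, 1 with an unadjusted p below 0.05 and 0 called by DESeq2. Gfpt1, the main isoform of the enzyme that commits fructose 6-phosphate to the route, had 47.3, 40.6 and 44.1 CPM in libraries labelled transgenic, against 37.0, 41.3 and 40.9 CPM in controls. The groups overlapped, at 0.15 ± 0.11 (edgeR adjusted p = 0.490). Uap1, the pyrophosphorylase that forms UDP-GlcNAc, had 53.8, 56.1 and 54.0 CPM in libraries labelled transgenic, against 44.4, 42.5 and 44.7 CPM in controls. All 3 libraries labelled transgenic lay above all controls, and the spread within each group was small. The log2 fold change of 0.32 ± 0.10 did not pass (edgeR adjusted p = 0.141). Pgm3, the mutase between them, was low, at 1.84 to 3.10 CPM in libraries labelled transgenic and 2.22 to 3.32 CPM in controls, with a log2 fold change of -0.21 ± 0.28, and 1270 of its 4487 exon bases overlap Dop1a on the opposite strand. Gnpnat1, the acetyltransferase of the route, had 4, 1 and 0 counts in libraries labelled transgenic, against 2, 2 and 1 counts in controls, and was not tested. In the GENCODE M21 annotation 3878 of its 4735 exon bases are also exon bases of Styx on the opposite strand. The strand setting of the counting is not given in the sources used here, and its level is uncertain.

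Ogt, the O-GlcNAc transferase, had 173, 196 and 207 CPM in libraries labelled transgenic, against 234, 256 and 251 CPM in controls. All 3 libraries labelled transgenic lay below all controls, at a log2 fold change of -0.36 ± 0.12 (edgeR adjusted p = 0.161). DESeq2 did not call it. The gene that reverses its reaction, Oga, listed in the table under its older symbol Mgea5, had a log2 fold change of 0.09 ± 0.18. Per length, the ratio of Ogt to Oga was 1.03, 1.02 and 0.940 in libraries labelled transgenic, against 1.66, 1.21 and 1.31 in controls. The groups did not overlap (two-sided exact permutation p = 0.1, the smallest possible here), and this ratio too was chosen after its parts were seen. Control replicate 1 had the highest ratio and the lowest Oga level, 17.4 FPKM, of the 6 libraries.

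**Figure D4:**
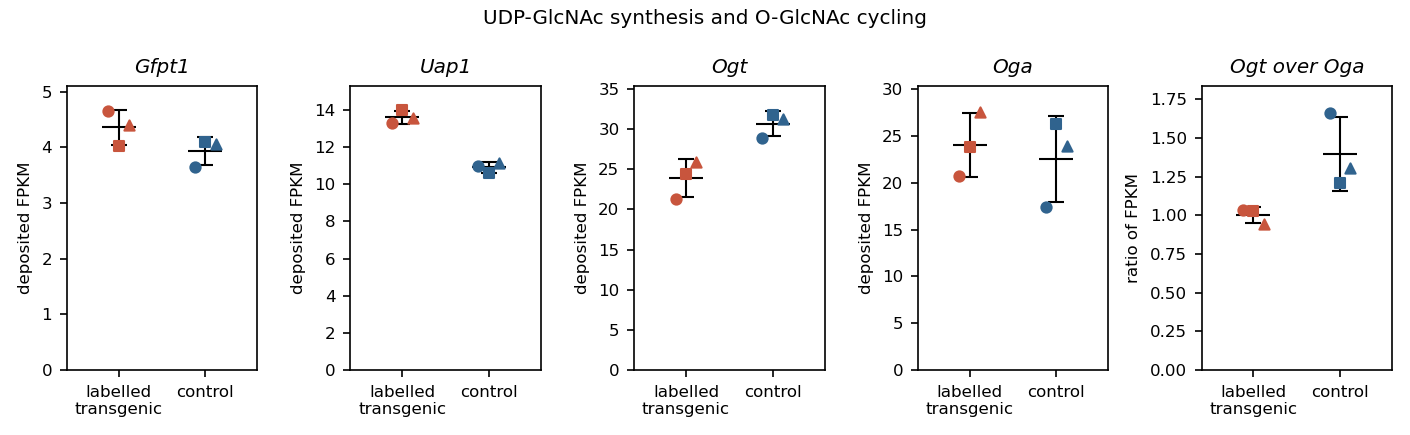
Deposited FPKM of Gfpt1, Uap1, Ogt and Oga and the ratio of Ogt to Oga in each library (points, shaped by replicate), with mean and SD of each group. Uap1 is higher and Ogt lower in all 3 libraries labelled transgenic than in any control, and the ratio averages 0.999 in libraries labelled transgenic and 1.39 in controls.

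Among the genes of hexosamine salvage and breakdown 0 of 5 passed, 1 had an unadjusted p below 0.05 and DESeq2 called 0. Gnpda1, a deaminase that returns glucosamine 6-phosphate to fructose 6-phosphate, had 15.6, 13.9 and 14.1 CPM in libraries labelled transgenic, against 12.3, 11.1 and 10.7 CPM in controls. The groups did not overlap, at a log2 fold change of 0.35 ± 0.14 (edgeR adjusted p = 0.205). Its paralogue Gnpda2 had 4.26, 3.97 and 3.24 CPM in libraries labelled transgenic, against 3.71, 2.13 and 3.00 CPM in controls. Its groups overlapped, with an estimate of 0.37 ± 0.26 (edgeR adjusted p = 0.450). Amdhd2, which removes the acetyl group from N-acetylglucosamine 6-phosphate, had 11.3, 11 and 10.1 CPM in libraries labelled transgenic, against 11.8, 12.5 and 12.2 CPM in controls. The gap was small next to the error, with a log2 fold change of -0.17 ± 0.13. Nagk, N-acetylglucosamine kinase, and Renbp were at 0.04 ± 0.20 and 0.21 ± 0.31.

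Neither glyoxalase nor Idh1 passed in edgeR or DESeq2, and 0 of the 3 had an unadjusted p below 0.05. Glo1, glyoxalase I, had 87.4, 89.6 and 90.8 CPM in libraries labelled transgenic, against 83.7, 102 and 109 CPM in controls. The libraries labelled transgenic were nearly equal and lay inside the control range, at -0.14 ± 0.13 (edgeR adjusted p = 0.556). Hagh, glyoxalase II, had 76.8, 48.2 and 49.2 CPM in libraries labelled transgenic, against 39.3, 56.0 and 44.5 CPM in controls. Transgenic replicate 1 alone exceeded the controls, and the log2 fold change of 0.32 ± 0.22 (edgeR adjusted p = 0.436) was 0.08 without it. Idh1, the cytosolic isocitrate dehydrogenase that yields NADPH, had 52.2, 46.4 and 39.4 CPM in libraries labelled transgenic, against 32.9, 33.6 and 44.8 CPM in controls. Control replicate 3 fell within the range of the libraries labelled transgenic, at 0.31 ± 0.17 (edgeR adjusted p = 0.330).

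**Figure D5:**
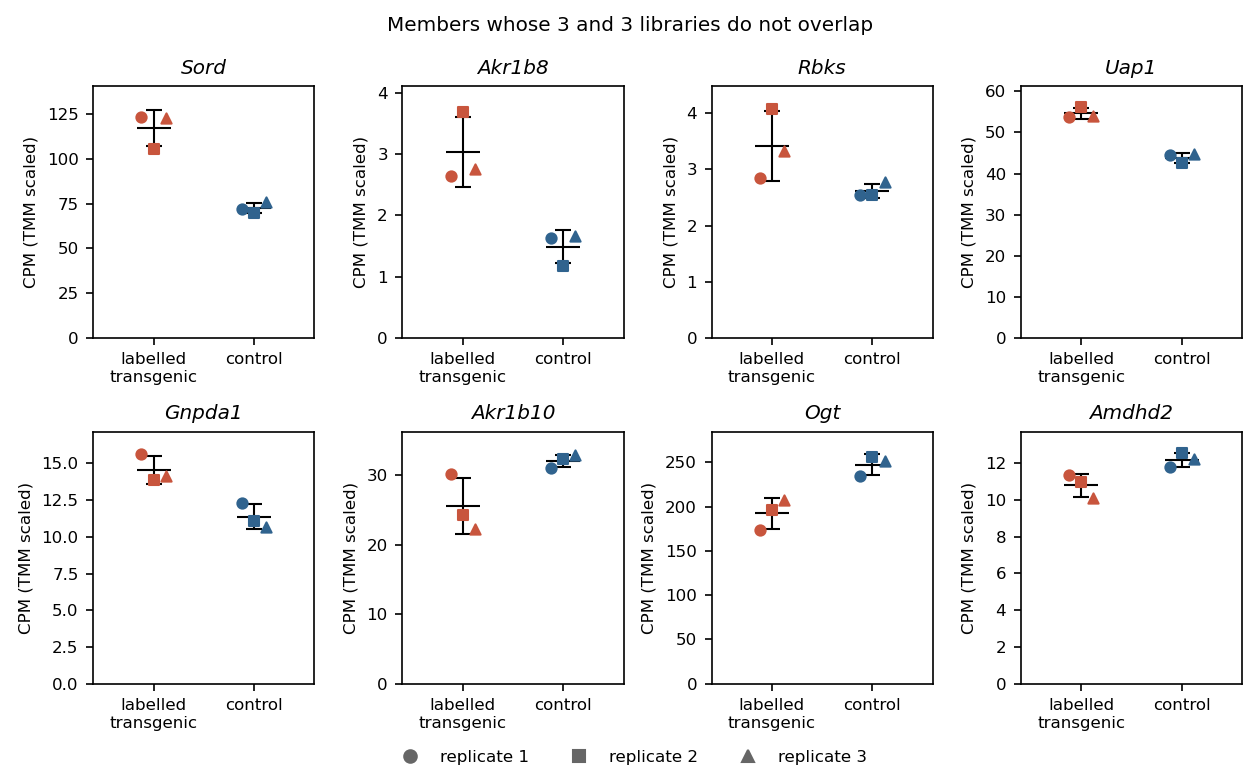
CPM of the 8 members whose groups do not overlap, in libraries labelled transgenic (left) and controls (right); points are libraries shaped by replicate, with mean and SD. Sord, Akr1b8, Rbks, Uap1 and Gnpda1 are higher and Akr1b10, Ogt and Amdhd2 lower in all 3 libraries labelled transgenic than in any control, and only Sord passed the test.

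Promoters are shown for members whose groups did not overlap, a choice of display only. Such a gap was found in 8 of 31 members and in 27.4% of all genes tested. The sequences are RefSeq's, on GRCm38.p6, and run 5′ to 3′ on the strand of the gene at most 250 bases before RefSeq's start, leaving out bases that lie inside the gene in the deposited table. Gnpda1 is not shown. Capitals mark matches to TGACNNNGC, the core of the antioxidant response element bound by NRF2, or to the E-box CACGTG, both searched on both strands.
Rbks (chr5:31697628-31697860, minus strand): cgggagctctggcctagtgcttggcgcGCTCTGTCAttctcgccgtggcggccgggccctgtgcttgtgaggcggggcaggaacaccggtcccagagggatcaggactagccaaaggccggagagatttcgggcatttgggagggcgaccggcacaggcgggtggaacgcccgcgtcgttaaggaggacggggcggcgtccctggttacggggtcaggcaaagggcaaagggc
Sord (chr2:122234589-122234748, plus strand): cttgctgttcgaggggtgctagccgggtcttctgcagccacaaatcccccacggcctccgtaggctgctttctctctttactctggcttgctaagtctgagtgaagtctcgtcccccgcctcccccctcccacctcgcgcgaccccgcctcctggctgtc
Akr1b8 (chr6:34353896-34354118, plus strand): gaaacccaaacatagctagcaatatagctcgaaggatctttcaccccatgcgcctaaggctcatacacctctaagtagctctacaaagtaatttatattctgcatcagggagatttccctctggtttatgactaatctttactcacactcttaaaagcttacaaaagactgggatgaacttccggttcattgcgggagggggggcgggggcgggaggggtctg
Akr1b10 (chr6:34383997-34384217, plus strand): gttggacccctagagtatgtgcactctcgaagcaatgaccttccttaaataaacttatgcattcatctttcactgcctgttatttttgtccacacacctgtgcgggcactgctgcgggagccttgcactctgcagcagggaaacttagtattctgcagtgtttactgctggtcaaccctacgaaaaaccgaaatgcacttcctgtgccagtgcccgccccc
Uap1 (chr1:170174965-170175214, minus strand): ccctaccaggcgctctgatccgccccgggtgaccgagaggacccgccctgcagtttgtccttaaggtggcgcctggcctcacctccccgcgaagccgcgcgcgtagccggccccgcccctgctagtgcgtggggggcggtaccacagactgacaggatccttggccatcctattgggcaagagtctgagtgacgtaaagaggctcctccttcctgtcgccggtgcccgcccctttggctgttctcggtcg
Ogt (chrX:101639801-101640050, plus strand): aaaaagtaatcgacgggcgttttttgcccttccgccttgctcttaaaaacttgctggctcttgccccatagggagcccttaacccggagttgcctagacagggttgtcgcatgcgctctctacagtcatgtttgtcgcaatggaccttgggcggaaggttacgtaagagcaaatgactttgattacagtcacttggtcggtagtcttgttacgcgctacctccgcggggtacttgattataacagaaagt
Amdhd2 (chr17:24163767-24163983, minus strand): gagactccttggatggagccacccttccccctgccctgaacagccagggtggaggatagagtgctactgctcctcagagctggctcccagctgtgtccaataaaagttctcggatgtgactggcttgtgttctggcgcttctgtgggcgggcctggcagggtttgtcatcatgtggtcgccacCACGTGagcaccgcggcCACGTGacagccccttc
Rbks held 1 match to TGACNNNGC and Amdhd2 held 2 to CACGTG, while the windows of Sord, Akr1b8, Akr1b10, Uap1 and Ogt held neither. Over whole 300-base windows, which run 50 bases past the start, TGACNNNGC occurred in 5 of the 33 promoters found for 29 members (G6pdx, Hagh, Pgd, Rbks and Tkfc), and in 12.4% of all 32851 promoters. CACGTG occurred in 2 of 33 (Amdhd2 and Khk) and in 7.15% of all. A match describes letters only.

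Other genes of these pathways, in 4 lists, gave 53 rows in the table and 44 tested genes, of which 1 passed as higher and 0 as lower in edgeR. Of all genes tested 0.788% passed as higher and 0.508% as lower, so 1 of 44 is near the background. The gene that rose was Slc2a5, the fructose carrier GLUT5, which had 20, 24 and 29 counts in libraries labelled transgenic, against 1, 0 and 0 counts in controls. Pooled, these are 73 counts against 1, a 69.9-fold difference after scaling whose exact interval, for counting error alone, runs from 12.2 to 2800 (edgeR adjusted p = 0.0188, with a range over the alternatives from 0.0143 to 0.133). It passed without transgenic replicate 1 or control replicate 1 and not when any of the other 4 libraries was left out. In the pentose phosphate and ribose list 0 of 11 passed and 2 had an unadjusted p below 0.05, with Pgm2l1, which makes glucose 1,6-bisphosphate, at a log2 fold change of -0.64 ± 0.16 and Prpsap1, a partner of the phosphoribosyl pyrophosphate synthetases, at 0.33 ± 0.14. In the hexosamine and sialic acid list 0 of 12 passed and 1 had an unadjusted p below 0.05. Nans, sialic acid synthase, averaged 22.0 ± 0.542 CPM in libraries labelled transgenic and 14.1 ± 1.65 CPM in controls (log2 fold change 0.65 ± 0.13, edgeR adjusted p = 0.0685, 0.00723 to 0.261 over the alternatives), and Npl, which cleaves sialic acid, was at -0.54 ± 0.25. In the NADPH and glyoxalase list 0 of 15 passed and 6 had an unadjusted p below 0.05. Of all genes tested, 20.8% had an edgeR unadjusted p below 0.05, the share to set beside each of these lists. In that list 11 of the 15 had a negative fold change, where 7996 of all 14973 genes tested did. Its median log2 fold change was -0.42 against -0.03 over all genes. The list was chosen with earlier results of these data known, so its shared direction is only described and was not tested. Me3, a mitochondrial malic enzyme, had 37.0, 34.6 and 34.1 CPM in libraries labelled transgenic, against 48.9, 67.4 and 69.7 CPM in controls (log2 fold change -0.82 ± 0.15, edgeR adjusted p = 0.0546). Park7, also known as DJ-1, had 280, 397 and 400 CPM in libraries labelled transgenic, against 503, 603 and 613 CPM in controls (-0.68 ± 0.18, edgeR adjusted p = 0.110). DESeq2 called 4 of these genes, Nans as higher, where 4% of all genes were, and Me3, Park7 and Pgm2l1 as lower, where 3.25% were, and gave Slc2a5 no adjusted p. In the polyol and fructose list Dhdh, dimeric dihydrodiol dehydrogenase, was at -0.62 ± 0.25.

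Without control replicate 1 edgeR called 1981 of 15278 genes, or 13%, and again only Sord among the 31 members, at a log2 fold change of 0.68 ± 0.12. Among the other pathway genes 6 of 45 then passed, Slc2a5 and Nans as higher and Me3, Park7, Nadk2 and Ldhd as lower, where 5.91% of all genes passed as higher and 7.06% as lower. The 8 markers of fibro-adipogenic progenitors summed to 1464, 1134 and 1281 CPM in libraries labelled transgenic, against 1056, 711 and 1049 CPM in controls, and each of the 8 had the higher mean in libraries labelled transgenic. The 8 endothelial markers summed to 743, 429 and 472 CPM in libraries labelled transgenic, against 434, 327 and 387 CPM in controls, and these sums overlapped. A higher mean in libraries labelled transgenic was also found for all 8 endothelial and all 9 macrophage markers. It was found for 3 of 7 adipocyte, 3 of 5 erythroid and 2 of 9 fibre markers. It was found for 0 of 6 slow fibre, 0 of 9 B cell and 0 of 9 T cell markers. All these means include control replicate 1, which was the highest library for all 9 B cell and all 9 T cell markers. With all libraries 0 of the 16 progenitor and endothelial markers passed in edgeR, and 3 of each list had an unadjusted p below 0.05. Such a p was reached by 20.8% of all genes tested. DESeq2, also with all libraries, called 2 of the 16, both of the progenitor list, and 7.26% of all genes. Without control replicate 1, edgeR called 3 of the 8 progenitor and 0 of the 8 endothelial markers, and 13% of all genes. None of the 16 markers was at 0 in any library. Their part in the values of Sord and of the other members was not tested.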

How the data were processed

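Gastrocnemius RNA of 6 libraries was extracted with Trizol and made into NEBNext Ultra libraries from 3 µg each, per the labels' protocols. Groups and replicate numbers come from the sample titles. HISAT2 2.0.5, featureCounts 1.5.0-p3 and GRCm38 are named in the submitters' processing notes. The annotation release and strand setting were not given in the sources used here, and overlapping genes or those with near-identical copies are uncertain. The authors deposited a raw read count for each Ensembl gene, per the file headers, and the deposited FPKM values divide by the table's gene length, per the file headers. FPKM served only for levels between genes and as an alternative.

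Counts were tested with edgeR 4.0.16 (R 4.3.3; TMM, filterByExpr, quasi-likelihood test, legacy = FALSE) over 14973 genes, two-sided, with Benjamini-Hochberg adjustment at 0.05 over all genes. An SE is the fold change (log2) over the square root of F. Errors after log2 fold changes are SEs and all others SDs over 3 libraries. A count of 3 in a library equals 0.120 to 0.145 CPM. The members and all gene lists were chosen with earlier results of these data known. Of the members, those past the threshold and the 2 with the smallest p per role were to be given in full, and of the other pathway lists those past it or the 2 with the smallest p. Copies were sought with blastn among GENCODE M21 transcripts (coding sequence, at least 200 bases). The alternatives were DESeq2 1.42.0, limma 3.58.1 on log2(FPKM + 1) and log2(FPKM + 0.1), other scalings, no filter, a replicate block, leaving out each library and, added after the data were seen, counts summed with copies at 97% identity. The steps were tested on simulated data.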

Additional observations from a re-analysis of the deposited data

How the results depend on the processing

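With all libraries edgeR called 194 genes, 1 member and 1 gene of the other pathway lists. Genes called over all genes numbered 124 with no filter on low counts, 997 with DESeq2, 112 and 121 with limma on log2(FPKM + 1) and log2(FPKM + 0.1), and 0 to 1981 when each library was left out in turn (1981 without control replicate 1). Members called numbered 0 with no filter, 0 with each limma fit, and 0 to 1 when each library was left out. In those 3 fits Sord had adjusted p-values of 0.0714, 0.0589 and 0.0516. Genes called in the other pathway lists numbered 2 with library totals alone, 4 with DESeq2 (Nans, Park7, Me3 and Pgm2l1, with no adjusted p for Slc2a5) and 0 to 6 when each library was left out. The labels do not say whether the replicate numbers pair the libraries. Deviations from the group means correlated at 0.00915, -0.14 and 0.18 between same-numbered libraries, and at -0.19 to 0.15 between the others. With 3 libraries per group these values cannot settle whether the libraries were paired. With the replicate block 5 genes, 0 members and 0 genes of the other lists were called, and Sord had an adjusted p of 0.0875. The log2 fold change of Prps2 turned positive in that fit, at 0.0584 (edgeR adjusted p = 0.951).

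Of the 31 tested members 21 kept their sign in all 14 alternatives, and none but Sord was called in any. With library totals alone, which moved the median of all genes by 0.15, G6pdx (0.0358), H6pd (0.14), Prps1 (0.0231) and Glo1 (0.0222) turned positive, and Prps2 was at 0.10 with limma on log2(FPKM + 0.1). When each library was left out, the log2 fold change ran from -0.30 to 0.17 for G6pdx, -0.14 to 0.10 for H6pd, -0.0183 to 0.26 for Pgls, -0.25 to 0.83 for Tkt, -0.0192 to 0.24 for Rpe, -0.48 to 0.78 for Prps2, -0.0389 to 0.0669 for Akr1a1 and -0.0818 to 0.19 for Nagk. The causes were not tested. Prps2 and Akr1b8 rest on 25 to 131 counts per library.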
